A study of Mus musculus with 58 samples.

Results

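The genes described here carry a cell through mitosis: the cyclins and kinases that start it, the checkpoint that holds it, the kinetochores and motors that move the chromosomes, and the machinery that cuts the cell in 2. A list of 41 named genes defines the group, and a gene was counted as measured where a transcript cluster of the array carried its symbol and no other. This held for 40 of the 41, each with a single cluster, out of 22180 genes measured in that way. Ccnb1 was not analysed here.

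Levels came from 58 arrays of liver tissue, 29 tumors and 29 normal livers, from adult mice of a mixed FVB/NJ, C57BL/6 and 129/Sv strain. All of them, those that gave normal liver included, had received adeno-associated virus (AAV) after birth, and the labels tie the disease to insertion of the virus into the genome. No liver of a mouse without AAV was analysed here, and the labels give no dose and name a vector cargo, GFP, only in the title of 1 normal liver. By their titles the arrays came from 39 animals: 18 gave a tumor and a normal liver, and 1 gave 2 tumors (tumors 22 and 26). Titles of 5 tumors and 5 normal livers bear the mark +/-, those of 5 tumors and 4 normal livers -/-, and the labels do not name the gene meant. Normal livers 26 and 27 bear the same animal name with different marks, +/- and -/-, and were counted as 2 animals. Some other titles share a number without naming the same animal: normal liver 28 with tumors 22 and 26, and normal liver 18 with tumor 17. The animal name of tumor 29 differs from that of tumor 4 only in the order of digits. These were counted as separate animals, and a looser reading of the titles was run as an alternative. Gender was labelled female for 11 tumors and 9 normal livers, male for 17 tumors and 20 normal livers, and was missing for 1 tumor.

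In adult liver, hepatocytes rest outside the cell cycle and divide rarely, whereas after injury or in liver cancer many enter it again. As background, most mitotic genes are transcribed late in the cycle, in G2 and M phase. Through the earlier phases the DREAM complex keeps them silent, and the MuvB core with B-Myb and FOXM1 then activates them. Protein kinases drive entry, and the anaphase promoting complex ends mitosis by marking cyclins and securin for destruction.

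Several libraries stood apart and touch the results below. Tumor 9 went against its tissue label in part: its mean level of 10 hepatocyte markers was 7.58, against 11.95 to 12.93 in the other 28 tumors and 12.07 to 12.85 in normal livers. Albumin (Alb) read 10.47 there and at least 13.29 in every other tumor, while B and plasma cell markers averaged 11.70 (6.75 to 9.30 in other tumors) and T and NK cell markers 9.21 (6.42 to 7.45). Tumor 20 and normal liver 19, both from 1 animal, averaged 10.55 and 10.53 over 9 neutrophil and myeloid precursor markers, whose medians were 6.30 in tumors and 6.35 in normal livers. All 9 of those markers were high in both arrays, among them Elane at 11.21 in tumor 20 and 10.89 in normal liver 19. Normal liver 16 had the highest cholangiocyte marker mean of the normal livers, 8.69 against 6.47 to 7.04 in the other 28. Its macrophage (10.40) and stellate cell and fibroblast (10.29) means were also the highest of the normal livers and its hepatocyte mean (12.07) the lowest. The Xist and Y-linked genes of 7 arrays (4 tumors, 3 normal livers) went against the gender label. Array medians ran from 6.72 to 7.15 on the log2 scale.

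All 40 measured genes were called higher in tumors than in normal liver by limma, with an adjusted p under 0.05 over all 22180 genes. Over all genes 17.9% were called higher and 14.3% lower. Without tumor 9, tumor 20 and normal liver 19, an alternative chosen after seeing the data, 39 of 40 were called higher. Bora, at an adjusted p of 0.0519, was the exception. Without normal liver 16, likewise chosen after seeing the data, all 40 were called. The change, meaning the difference of log2 levels, had a median of 0.67 over the 40 genes and of -0.02 over all genes. It ran from 0.19 for Espl1 to 1.45 for Cdk1, and 6 genes changed by at least 1 on the log2 scale: Cdk1, Ect2, Prc1, Ube2c, Mki67 and Ndc80. Over all genes 1.03% were called higher with a change of that size. In tissue RNA of this kind, more dividing cells and more of each transcript per cell cannot be told apart.

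**Figure D1:**
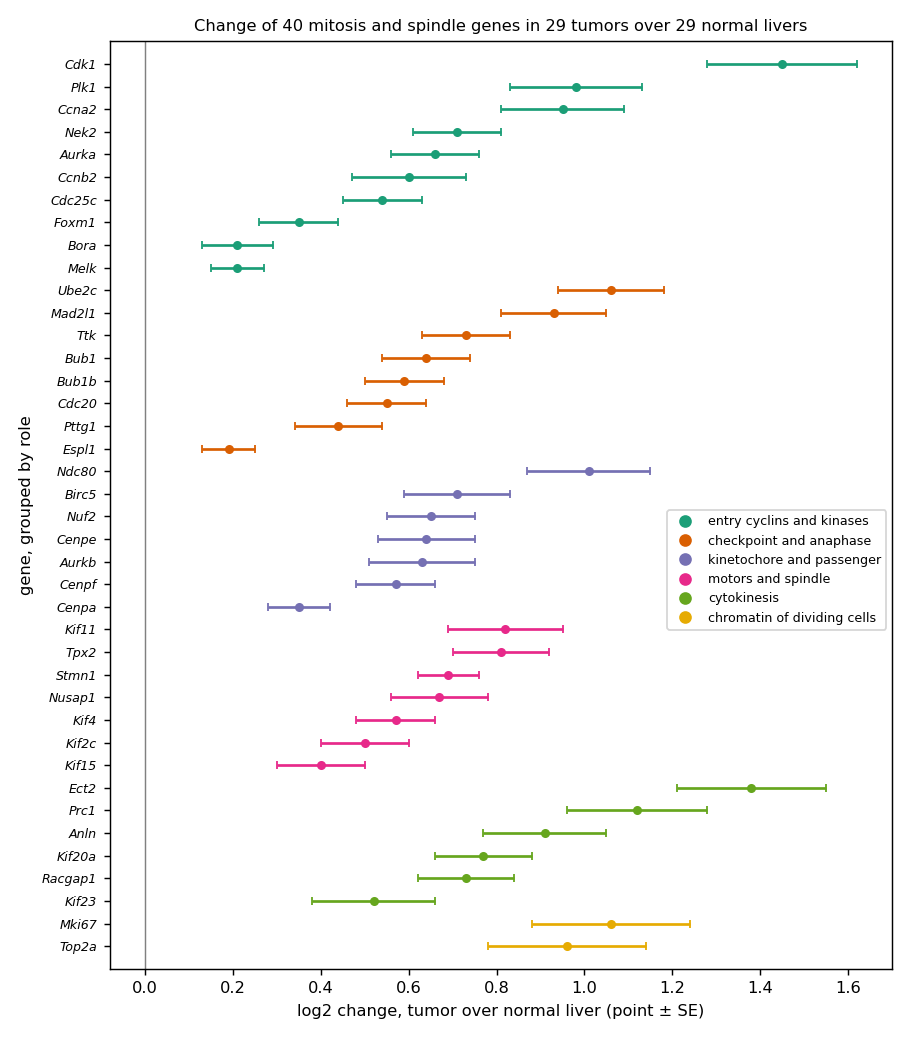
Log2 change between 29 tumors and 29 normal livers for each of the 40 genes (points) with its standard error (bars), grouped by role. All points lie right of 0, from 0.19 for Espl1 to 1.45 for Cdk1.

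No gene of the 40 had tumors and normal livers that did not overlap, and over all genes this share was 0%. The overlap came from tumors that stayed low as well as from a few high normal livers. The median gene had 12.5 of 29 tumors above its highest normal liver, against 1 of 29 for the median of all genes. Normal liver 19 was that highest normal liver for 26 of the 40 genes, and normal liver 7 for 5. Without tumor 9, tumor 20 and normal liver 19 the median was 13.5 of 27 tumors.

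Below, levels are log2 array values and a change is the level in tumors minus that in normal livers, with its standard error (SE) and limma's adjusted p. A pair is an animal with both tissues, and pairs are counted where the tumor was the higher one. Because arrays read each gene through its own probes, levels are not set against each other between genes.

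Among the entry cyclins and kinases all 10 measured genes were higher in tumors, with a median change of 0.63. Cdk1, the kinase whose activity defines mitosis, ranged from 6.99 over a median of 9.23 to 10.67 in tumors and from 6.65 over 7.86 to 9.14 in normal livers. Tumors 26 and 19 were the highest and tumor 23 the lowest, and 15 of 29 tumors lay above normal liver 19, the highest normal liver. Its change was 1.45 ± 0.17 (adjusted p = 2.1e-09), with 16 of 18 pairs higher. Cyclins are the partners that activate Cdk1. Ccna2, cyclin A2, had medians of 8.22 in tumors and 7.20 in normal livers, a change of 0.95 ± 0.14 (adjusted p = 1.9e-07) in 16 pairs. Ccnb2, cyclin B2, changed by 0.60 ± 0.13 (adjusted p = 1.6e-04) in 14 pairs. In animals without a pair alone, Ccnb2 did not pass (adjusted p = 0.235).

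Cdc25c, a phosphatase that switches Cdk1 on, was higher in 18 of 18 pairs, with a change of 0.54 ± 0.09 (adjusted p = 2.3e-06). Plk1, the polo-like kinase of mitotic entry and spindle assembly, had medians of 8.15 in tumors and 7.07 in normal livers and changed by 0.98 ± 0.15 (adjusted p = 3.1e-07, 16 pairs). Aurka, the Aurora kinase of the centrosomes, changed by 0.66 ± 0.10 (adjusted p = 3.5e-07, 17 pairs), and Bora, the cofactor with which Aurora A activates Plk1, by only 0.21 ± 0.08 (adjusted p = 0.0375, 14 pairs). Nek2, a kinase that separates the centrosomes, was higher in 18 of 18 pairs with a change of 0.71 ± 0.10 (adjusted p = 8.2e-08). Melk, a kinase named for embryonic tissue and leucine zipper, changed by 0.21 ± 0.06 (adjusted p = 0.00713, 13 pairs). Foxm1, the transcription factor of late cell cycle genes, changed by 0.35 ± 0.09 (adjusted p = 0.00103, 13 pairs). The regulators Bora, Melk and Foxm1 had the smallest changes of this role. Bora lost its call in 7 of the alternatives run, with adjusted p from 0.0519 to 0.57. In animals without a pair Melk (adjusted p = 0.334) and Foxm1 (adjusted p = 0.0679) lost theirs too.

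**Figure D2:**
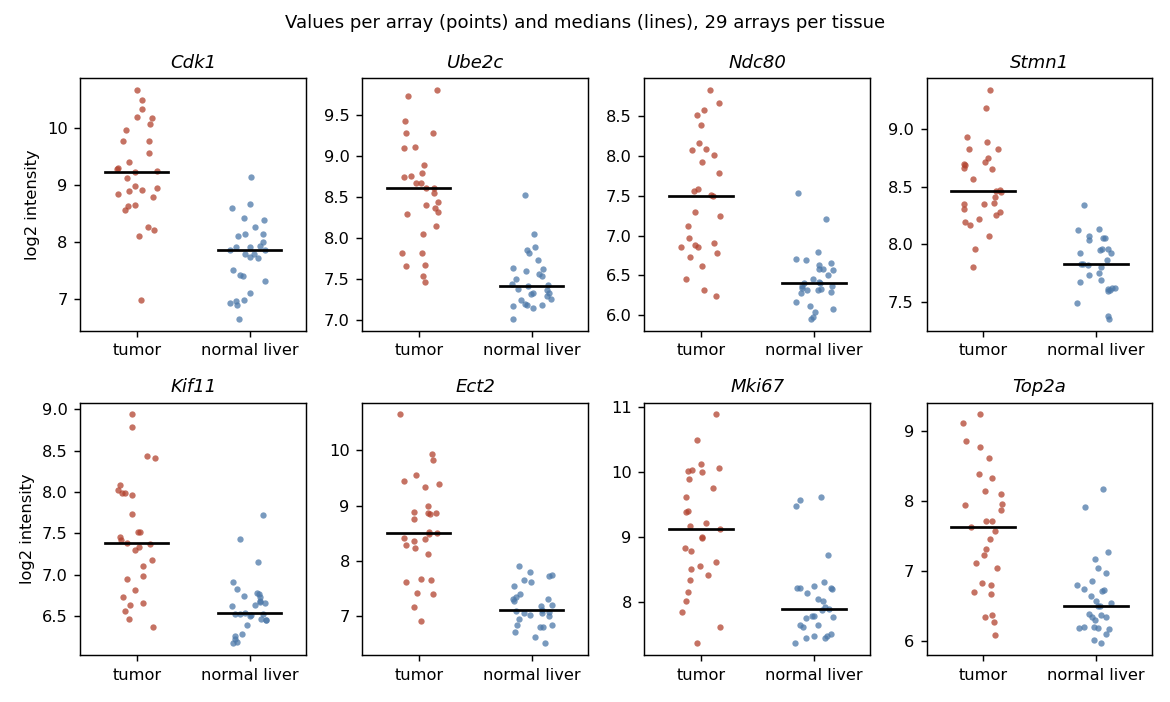
Log2 levels of 8 genes in every tumor (left) and normal liver (right), 29 arrays each, with the median as a line. Tumor medians lie above normal liver medians in each panel and the ranges overlap, as for Cdk1 with 6.99 to 10.67 in tumors and 6.65 to 9.14 in normal livers.

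The checkpoint and anaphase genes decide when sister chromatids part. All 8 were higher in tumors, with a median change of 0.61. Ube2c, the ubiquitin-conjugating enzyme of the anaphase promoting complex, ranged from 7.46 over a median of 8.60 to 9.80 in tumors and from 7.01 over 7.41 to 8.52 in normal livers. Of the tumors, 16 lay above the highest normal liver, and 17 normal livers lay below the lowest tumor. It changed by 1.06 ± 0.12 (adjusted p = 1.1e-09) in 16 of 18 pairs. Cdc20, which recruits targets to the same complex, changed by 0.55 ± 0.09 (adjusted p = 2.9e-06, 16 pairs). Mad2l1, the inhibitor that captures Cdc20 while kinetochores are unattached, changed by 0.93 ± 0.12 (adjusted p = 2.6e-08, 17 pairs), with medians of 8.08 in tumors and 7.15 in normal livers.

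Bub1, a checkpoint kinase at kinetochores, changed by 0.64 ± 0.10 (adjusted p = 1.7e-06, 16 pairs). Its relative Bub1b, BubR1, changed by 0.59 ± 0.09 (adjusted p = 5.2e-07, 16 pairs). Ttk, the Mps1 kinase at the top of the checkpoint, was higher in 18 of 18 pairs, by 0.26 to 1.91, and changed by 0.73 ± 0.10 (adjusted p = 1.2e-07). The pair of genes that control cohesin cleavage moved less. Pttg1, securin, changed by 0.44 ± 0.10 (adjusted p = 7.3e-04, 15 pairs), and Espl1, the separase it restrains, by 0.19 ± 0.06 (adjusted p = 0.0213, 11 pairs). Pttg1 differed from the other 39 genes in its spread: levels ran from 7.68 to 9.19 in tumors and from 7.19 to 9.28 in normal livers. Its highest value of all was in normal liver 24, so that 0 of 29 tumors exceeded the normal livers. In animals without a pair, Pttg1 (adjusted p = 0.178) and Espl1 (adjusted p = 0.209) did not pass, and Espl1 did not pass in the 18 pairs alone either (adjusted p = 0.164).

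Kinetochores join chromosomes to spindle microtubules, and the chromosomal passenger complex corrects wrong attachments. All 7 genes of this role were higher in tumors, with a median change of 0.64. Ndc80, the microtubule-binding subunit of the outer kinetochore, ranged from 6.24 over a median of 7.50 to 8.83 in tumors and from 5.95 over 6.40 to 7.53 in normal livers. Tumor 9 was the highest tumor, tumor 28 the lowest, and 13 tumors lay above normal liver 19, the highest normal liver. The change was 1.01 ± 0.14 (adjusted p = 6.9e-08) with 17 of 18 pairs higher. Its partner in the complex, Nuf2, changed by 0.65 ± 0.10 (adjusted p = 1.9e-06, 15 pairs). Cenpe, a kinetochore motor, changed by 0.64 ± 0.11 (adjusted p = 3.0e-06, 16 pairs), and Cenpf, a large protein of the outer kinetochore, by 0.57 ± 0.09 (adjusted p = 5.2e-07, 15 pairs). Cenpa, the histone H3 variant that marks centromeres, had the smallest change here, 0.35 ± 0.07 (adjusted p = 3.4e-05, 17 pairs). It did not pass in animals without a pair (adjusted p = 0.154). Of the passenger complex, the kinase Aurkb changed by 0.63 ± 0.12 (adjusted p = 4.4e-05, 14 pairs) and Birc5, survivin, by 0.71 ± 0.12 (adjusted p = 3.9e-06, 17 pairs). Birc5 exceeded its highest normal liver in only 3 of 29 tumors, that liver being normal liver 19 at 7.56.

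Spindle motors and microtubule regulators shape the bipolar spindle. All 7 were higher in tumors, with a median change of 0.67. Stmn1, stathmin, which takes microtubules apart, ranged from 7.80 over a median of 8.46 to 9.34 in tumors and from 7.35 over 7.83 to 8.34 in normal livers. Of the tumors, 20 lay above the highest normal liver, and 13 normal livers lay below the lowest tumor. The change of 0.69 ± 0.07 had the smallest adjusted p of the 40 genes, 1.0e-10, and 17 of 18 pairs were higher. Kif11, the kinesin that pushes spindle poles apart, ranged from 6.37 over a median of 7.38 to 8.94 in tumors and from 6.17 over 6.54 to 7.72 in normal livers. Its change was 0.82 ± 0.13 (adjusted p = 2.0e-06, 15 pairs), and 10 tumors exceeded normal liver 19, the highest. Tpx2, which activates Aurora A on the spindle, changed by 0.81 ± 0.11 (adjusted p = 5.2e-08, 17 pairs). Nusap1, a protein that bundles spindle microtubules, changed by 0.67 ± 0.11 (adjusted p = 1.8e-06, 17 pairs). Among the other kinesins, the chromosome-arm motor Kif4 changed by 0.57 ± 0.09 (adjusted p = 3.1e-07, 17 pairs), the microtubule depolymerase Kif2c by 0.50 ± 0.10 (adjusted p = 3.4e-05, 14 pairs) and Kif15, which backs up Kif11, by 0.40 ± 0.10 (adjusted p = 0.00152, 14 pairs).

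Cytokinesis genes build the central spindle and the contractile ring. All 6 were higher in tumors, and their median change, 0.84, was above those of the 4 roles described so far. Ect2, the exchange factor that activates RhoA at the cell equator, ranged from 6.92 over a median of 8.50 to 10.65 in tumors and from 6.51 over 7.12 to 7.91 in normal livers. In 22 of 29 tumors it exceeded the highest normal liver, the most of any of the 40 genes. It changed by 1.38 ± 0.17 (adjusted p = 2.2e-09, 16 pairs). Racgap1 and Kif23, whose proteins form the centralspindlin complex, changed by 0.73 ± 0.11 (Racgap1, adjusted p = 8.4e-07, 17 pairs) and 0.52 ± 0.14 (Kif23, adjusted p = 0.00286, 13 pairs). Prc1, which bundles the antiparallel microtubules of the midzone, had medians of 7.79 in tumors and 6.60 in normal livers and changed by 1.12 ± 0.16 (adjusted p = 8.2e-08, 17 pairs). Kif20a, a midzone kinesin, was above every normal liver in 20 of 29 tumors and changed by 0.77 ± 0.11 (adjusted p = 1.2e-07, 16 pairs). Anln, anillin, a scaffold of the contractile ring, changed by 0.91 ± 0.14 (adjusted p = 4.8e-07, 17 pairs). Anln read 7.54 in tumor 28, the tumor of lowest mean over the genes, and 7.61 in normal liver 26 and 7.49 in normal liver 27, whose means over the genes were 6.64 and 6.84. The titles of these arrays share a number. The Anln medians were 7.59 in tumors and 6.59 in normal livers.

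Mki67 and Top2a, textbook proliferation markers, were both higher in tumors. Mki67, the Ki-67 protein that coats mitotic chromosomes, ranged from 7.36 over a median of 9.13 to 10.89 in tumors and from 7.37 over 7.89 to 9.62 in normal livers. Only 9 tumors exceeded the highest normal liver, and the high normal livers were numbers 16, 19 and 7, at 9.62, 9.57 and 9.47. Its change was 1.06 ± 0.18 (adjusted p = 7.5e-06, 15 pairs). Top2a, the topoisomerase that untangles sister chromatids, ranged from 6.09 over a median of 7.63 to 9.24 in tumors and from 5.97 over 6.51 to 8.17 in normal livers, where livers 19 and 7 were again the highest. It changed by 0.96 ± 0.18 (adjusted p = 1.6e-05, 14 pairs). Markers of other cell types were also high in these normal livers: the neutrophil and myeloid precursor markers averaged 8.75 in liver 16, 10.53 in liver 19 and 8.02 in liver 7, against a median of 6.35, and the B and plasma cell markers 8.98 in liver 7, the highest normal liver for that list. Liver 16 also had the highest cholangiocyte (8.69), macrophage (10.40) and stellate cell and fibroblast (10.29) marker means of the normal livers. Their part in these levels was not tested.

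The genes differed in size of change but moved together from tumor to tumor. Over the 29 tumors, the 780 pairs of genes had Pearson correlations from 0.30 to 0.97 with a median of 0.82. Over the 29 normal livers the median was 0.50, with a range of -0.55 to 0.92. Tpx2 followed the mean of the other genes most closely in tumors (r = 0.98), followed by Plk1 and Top2a at 0.97, while Stmn1 followed it least (r = 0.57). In normal livers Melk had almost no correlation with the rest (r = 0.03). Values of 1 array share its scale and its mixture of cells, so these correlations are a description. Without tumor 9 the median correlation was 0.83.

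**Figure D3:**
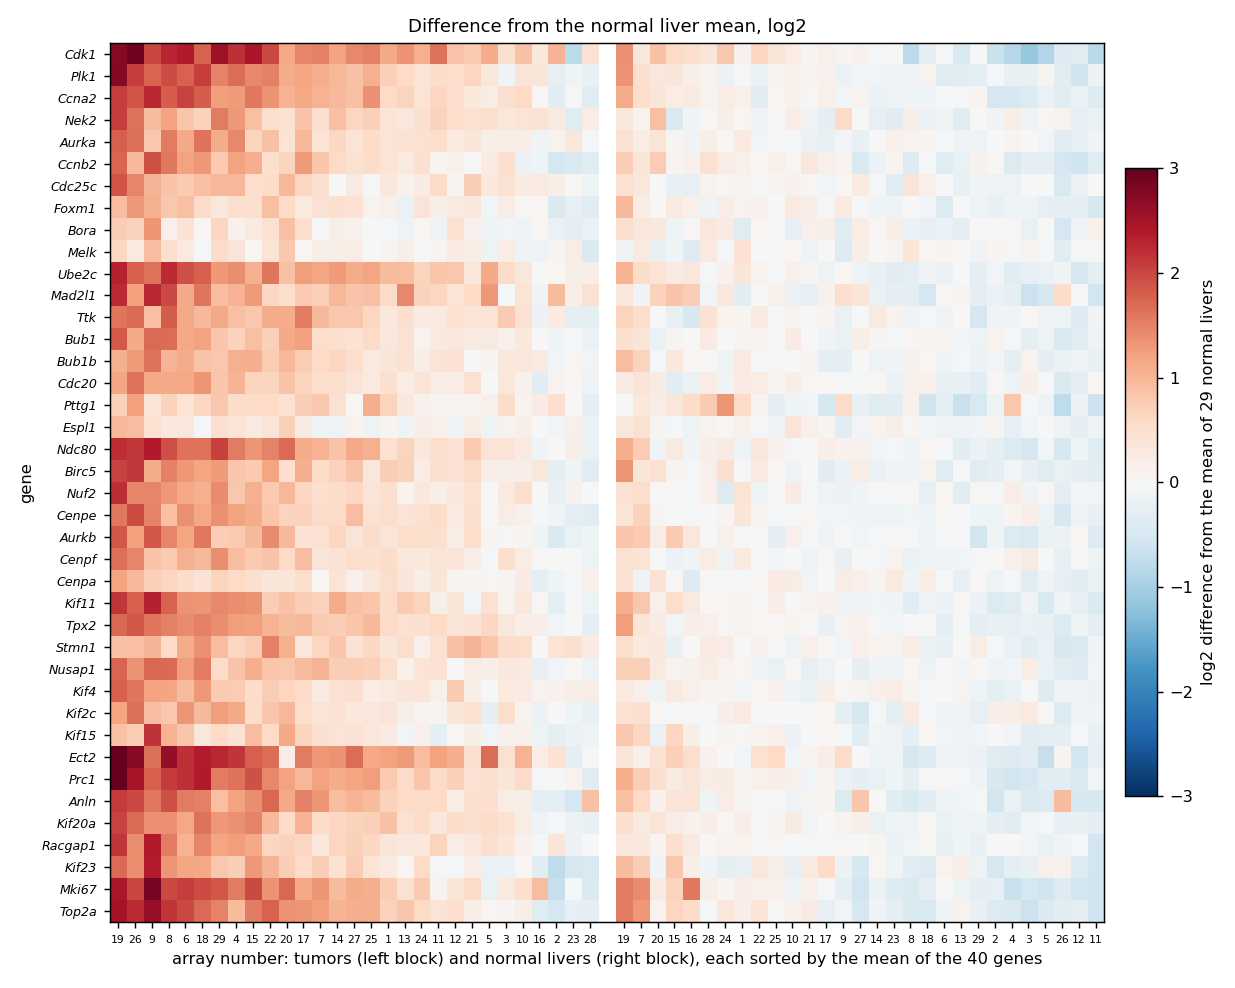
Level of each of the 40 genes (rows) in each tumor (left block) and normal liver (right block) as the log2 difference from the mean of 29 normal livers, red for higher and blue for lower, arrays sorted by the mean of the genes. Tumors 19, 26 and 9 are high for nearly all genes, tumors 2, 16, 23 and 28 lie near the levels of normal liver, and normal livers 19 and 7 are the reddest of the right block.

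Tumors spread widely in the mean of the genes. It ran from 6.77 over a median of 7.55 to 8.67 in tumors and from 6.60 over 6.84 to 7.59 in normal livers. By that mean 12 of 29 tumors lay above every normal liver. Without tumor 9, tumor 20 and normal liver 19, 15 of 27 tumors lay above the highest remaining normal liver, liver 7 at 7.35. Counted gene by gene, tumor 19 had 38 of the 40 genes above the highest normal liver and tumors 9 and 26 had 37 each, and 8 tumors had at least 30. Over all genes, the share above the highest normal liver had a median of 6.21% per tumor, and was 10.92% in tumor 19, 15.68% in tumor 9 and 5.90% in tumor 26. At the other end tumors 16, 23 and 28 had 0 of the 40 genes above it, beside 7.20%, 8.47% and 5.27% of all genes. Another 10 tumors had 1 to 5. In 8 of those 10 the share of the 40 genes exceeded the share of all genes in the same tumor. In some of them the shares lay close, as in tumor 10 with 2 of 40 beside 4.56% and tumor 13 with 4 of 40 beside 8.47%. They lay further apart in tumor 1, with 5 of 40 beside 0.78%. The 2 tumors of 1 animal, numbers 22 and 26, had 25 and 37 such genes and means of 7.86 and 8.45.

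The spread was larger in tumors than in normal livers for 39 of 40 genes, against 67.4% of all genes. The ratio of the standard deviations (SD) had a median of 1.93 over the 40 genes and 1.12 over all genes, from 0.684 for Pttg1 to 3.11 for Racgap1. Without tumor 9 the count was also 39. Across tumors the mean of the genes correlated with that of the T and NK cell markers (Pearson r = 0.54, Spearman correlation = 0.53, n = 29), and r was 0.54 without tumor 9 and 0.57 without the 2 tumors farthest from the median of the gene mean. With the hepatocyte markers r was -0.23 over all tumors and 0.29 without tumor 9. Among the 14 T and NK cell genes measured, Cd4 alone was called higher in tumors and Prf1 alone lower, and the marker means ran from 6.42 to 9.21 in tumors and from 6.60 to 7.69 in normal livers. The part of immune cells in the level of the mitotic genes was not tested.

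Some markers of the other liver cell types were called too, beside 17.9% of all genes called higher and 14.3% called lower. Of 13 macrophage genes 3 (23.1%) were called higher and 5 (38.5%) lower. The lower ones, all known from Kupffer cells, the resident macrophages of the liver, were Clec4f (-2.06 ± 0.23, adjusted p = 2.4e-10), Vsig4 (-2.37), Timd4 (-1.20), Cd5l (-2.12) and Marco (-1.10). Gpnmb, singled out after its value was seen, was higher (1.76 ± 0.30, adjusted p = 5.9e-06). Of 10 endothelial genes 4 were higher, led by Esm1 (1.86 ± 0.20, adjusted p = 1.9e-10), and 2 lower, the sinusoidal genes Clec4g (-2.03) and Stab2 (-1.01). Of 10 stellate cell and fibroblast genes 4 were higher, among them the collagen gene Col1a1 (1.07 ± 0.23, adjusted p = 2.5e-04), and 3 lower, Reln (-1.18), Dcn (-0.81) and Lrat (-0.76). Cholangiocyte genes had 0 of 7 higher and 4 (57.1%) lower, namely Pkhd1 (-0.66), Krt19 (-0.19), Cldn7 (-0.20) and Krt7 (-0.14). Hepatocyte genes had 0 of 10 higher and 2 (20%) lower, Apoa2 (-0.54) and Hnf4a (-0.33). The fit behind these 2 calls includes tumor 9, at 7.74 for Apoa2 and 7.53 for Hnf4a. The other tumors read at least 11.46 and 9.83.

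The mean level of these lists overlapped between the tissues. Macrophage marker means ran from 7.61 to 9.51 in tumors and from 7.82 to 10.40 in normal livers, and endothelial ones from 7.94 to 10.09 in tumors and from 8.56 to 9.88 in normal livers. Stellate cell and fibroblast means ran from 7.80 to 10.46 in tumors and from 8.41 to 10.29 in normal livers, and cholangiocyte means from 6.38 to 7.04 in tumors and from 6.47 to 8.69 in normal livers. Over the 29 tumors their correlation (r) with the mean of the mitotic genes was 0.11 for macrophage, 0.15 for endothelial, 0.36 for stellate cell and fibroblast and 0.01 for cholangiocyte markers. The part of these cell types in the level of the mitotic genes was not tested.

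Within animals the same direction held in most pairs. In 17 of 18 pairs the mean of the 40 genes was higher in the tumor, by a median of 0.60. The exception was the animal of tumor 16 and normal liver 16, with a mean difference of -0.13. There 14 of 40 genes were higher in the tumor, beside 55.56% of all genes. Normal liver 16 is the one with the high cholangiocyte, macrophage and stellate cell markers. In 6 pairs all 40 genes were higher, and the median pair had 38.5 higher. Of all genes, the median pair had 47.4% higher in the tumor. The largest mean difference, 1.80, was that of tumor 19 over normal liver 17, with 40 genes higher beside 51.39% of all genes. Tumor 20 over normal liver 19, the animal with high myeloid markers in both tissues, had a difference of 0.16. In that pair 26 of 40 genes were higher, beside 49.68% of all genes. By gene, 30 of 40 were higher in at least 15 of 18 pairs, against 10.2% of all genes. When the fit was confined to the 18 pairs and took each animal as a block, 37 of 40 genes were called higher, against 12.6% of all genes. Bora (adjusted p = 0.0911), Espl1 (adjusted p = 0.164) and Melk (adjusted p = 0.0617) did not pass. Among animals without a pair (22 arrays), 33 of 40 were called, against 6.18% of all genes.

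**Figure D4:**
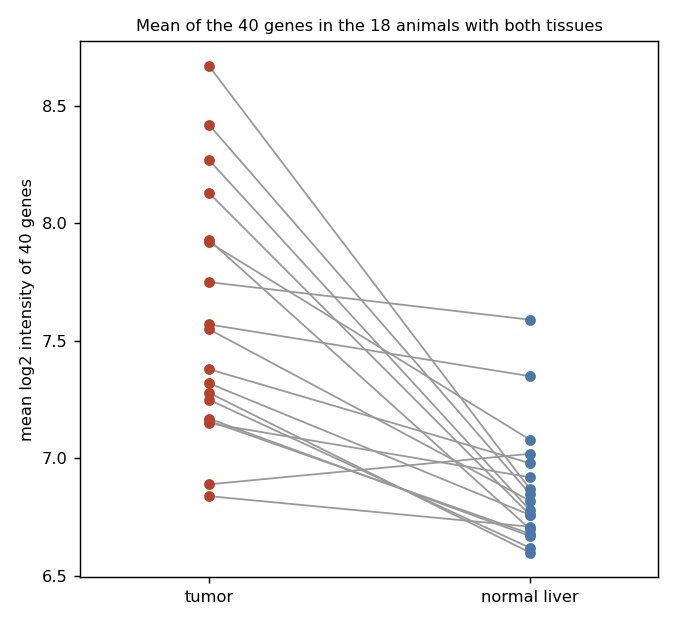
Mean log2 level of the 40 genes in the tumor (left) and the normal liver (right) of the 18 animals with both, joined by lines. The line rises towards the tumor in 17 animals, by up to 1.80, and falls by 0.13 in the animal of tumor 16.

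Promoters were examined because the genes moved together. As background, late cell cycle promoters often hold the cell cycle genes homology region (CHR), bound by MuvB, and CCAAT boxes bound by NF-Y. RefSeq promoter windows of GRCm38.p6, 250 bases before to 50 after the start, were found for 32 of the 40 genes, 34 windows in all. None was found for Ccna2, Cdc25c, Bora, Foxm1, Aurkb, Tpx2, Stmn1 and Kif20a. The letters TTTGAA or TTCGAA, on either strand, occurred in 26 of 34 windows (76.5%), against 19.2% of all 32851 windows. CCAAT, on either strand, occurred at least once in 24 of 34 (70.6%, all windows 37.4%) and at least 2 times in 15 of 34 (44.1%, all windows 11.7%). Both motifs stood together in 64.7% of the gene windows and in 7.52% of all windows. Windows with neither CHR letters nor CCAAT were those of Birc5, Mad2l1, Melk, Nuf2, Nusap1 and Pttg1, whose changes ran from 0.21 to 0.93. These are counts of letters, and no binding was measured.

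The 250 bases before the start are shown for the 5 genes of largest change whose sequence there holds CHR letters and at least 2 CCAAT boxes, written in the direction of transcription with both motifs, on either strand, in capitals. Where 2 motifs overlap, as once in Ube2c, the capitals run on. Ect2 has 2 entries in the table, of which 1 is shown.
Cdk1, chr10:69352913-69353162, minus strand: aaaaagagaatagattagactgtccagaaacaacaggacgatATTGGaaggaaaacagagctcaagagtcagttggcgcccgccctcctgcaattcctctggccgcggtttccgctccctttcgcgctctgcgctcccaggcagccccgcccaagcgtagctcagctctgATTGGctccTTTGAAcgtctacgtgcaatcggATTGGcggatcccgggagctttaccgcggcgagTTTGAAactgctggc
Ect2, chr3:27153879-27154128, minus strand: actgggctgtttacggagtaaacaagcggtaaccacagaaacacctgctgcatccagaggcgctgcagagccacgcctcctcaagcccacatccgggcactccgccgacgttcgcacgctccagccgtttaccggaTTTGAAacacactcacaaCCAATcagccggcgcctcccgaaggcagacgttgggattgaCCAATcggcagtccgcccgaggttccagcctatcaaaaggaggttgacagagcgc
Ube2c, chr2:164769679-164769928, plus strand: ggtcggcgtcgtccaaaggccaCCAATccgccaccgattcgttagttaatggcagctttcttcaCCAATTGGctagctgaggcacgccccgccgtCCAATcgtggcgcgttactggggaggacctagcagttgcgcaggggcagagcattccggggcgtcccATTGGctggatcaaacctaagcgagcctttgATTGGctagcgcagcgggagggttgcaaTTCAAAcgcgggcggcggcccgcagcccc
Mki67, chr7:135716380-135716629, minus strand: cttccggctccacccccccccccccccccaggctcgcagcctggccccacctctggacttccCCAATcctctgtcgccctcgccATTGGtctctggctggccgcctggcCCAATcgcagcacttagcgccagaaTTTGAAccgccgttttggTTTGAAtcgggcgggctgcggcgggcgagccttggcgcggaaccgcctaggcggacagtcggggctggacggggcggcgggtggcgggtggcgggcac
Top2a, chr11:99024190-99024439, minus strand: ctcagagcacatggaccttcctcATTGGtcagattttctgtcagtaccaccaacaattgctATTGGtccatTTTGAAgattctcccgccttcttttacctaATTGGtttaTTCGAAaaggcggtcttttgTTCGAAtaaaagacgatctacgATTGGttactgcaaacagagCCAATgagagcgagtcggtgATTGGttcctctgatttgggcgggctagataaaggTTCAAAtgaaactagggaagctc

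The CHR letters nearest the start ended 9 bases before it in Cdk1, 17 in Top2a, 23 in Ube2c, 92 in Mki67 and 108 in Ect2. Cdk1 has 3 CCAAT boxes in this stretch, with a CHR match shortly after the second, and changed by 1.45. Ube2c and Top2a have 6 CCAAT boxes each and changed by 1.06 and 0.96. Ccnb2, with 3 CCAAT boxes and a CHR match 161 bases before its start, changed by 0.60, and Cdc20, with 2 boxes and a match 12 bases before its start, by 0.55. The number of boxes and the size of change were not tested against each other.

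Other genes of the cell cycle were examined by list. The counts of called genes below stand beside 17.9% of all genes called higher and 14.3% called lower. Spindle motors and spindle proteins outside the group had 27 of 32 measured genes higher and 0 lower, with a median change of 0.38. Ckap2, a protein of spindle microtubules, changed most, by 0.95 ± 0.10 (adjusted p = 8.4e-11), next to Arhgap11a, a GTPase-activating protein, with 0.94 ± 0.11 (adjusted p = 8.9e-10), and Kif3a, a kinesin of cilia, with 0.56 ± 0.07 (adjusted p = 1.3e-08). Other kinetochore and centromere genes had 22 of 28 higher and 1 lower, with a median of 0.43. Dsn1, of the Mis12 complex, changed by 0.83 ± 0.08 (adjusted p = 4.3e-12), and Spc25, another subunit of the Ndc80 complex, by 0.66 ± 0.08 (adjusted p = 3.7e-09), with 26 of 29 tumors above every normal liver. Knl1, a kinetochore scaffold, changed by 0.82 ± 0.11 (adjusted p = 8.7e-08) and the centromere protein Cenpq by 1.13 ± 0.17 (adjusted p = 2.9e-07). Zw10 was the gene called lower, with -0.17 ± 0.05 (adjusted p = 0.00817).

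Of 10 other checkpoint and passenger genes, 6 (60%) were higher and 2 (20%) lower. Trip13, which takes the checkpoint complex apart, changed by 0.31 ± 0.05 (adjusted p = 7.8e-06), Sgo1, shugoshin, which guards centromeric cohesion, by 0.45 ± 0.08 (adjusted p = 1.6e-05) and Incenp, the scaffold of the passenger complex, by 0.36 ± 0.07 (adjusted p = 5.5e-05). The Mad2 partner Mad1l1 was lower by contrast, with -0.24 ± 0.05 (adjusted p = 1.0e-04, 3 of 18 pairs higher), as was Mad2l2, with -0.25 ± 0.10 (adjusted p = 0.0403). Condensin and cohesin genes had 12 of 20 higher and 0 lower. Condensin subunits Smc2 (0.70 ± 0.10, adjusted p = 9.8e-08) and Smc4 (0.89 ± 0.14, adjusted p = 7.1e-07) were higher, as was Esco2, an acetyltransferase of cohesin (0.92 ± 0.14, adjusted p = 6.5e-07). For the cohesin core genes Smc1a and Smc3 the changes were -0.03 (adjusted p = 0.733) and -0.02 (adjusted p = 0.913), beside 0.35 for Rad21 (adjusted p = 5.4e-05); these 3 were singled out after their values were seen.

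Of the anaphase promoting complex and its regulators 7 of 17 genes (41.2%) were higher and 1 (5.88%) lower, with a median of 0.14. Anapc7 (0.20 ± 0.04, adjusted p = 1.6e-04), Anapc4 (0.36 ± 0.08, adjusted p = 3.4e-04) and the G1 activator Fzr1 (0.22 ± 0.05, adjusted p = 5.0e-04) were higher and Anapc15 lower (-0.18 ± 0.06, adjusted p = 0.0226). Centrosome genes had 7 of 15 (46.7%) higher and 2 (13.3%) lower. Plk4, the kinase that starts centriole duplication, led with 0.80 ± 0.10 (adjusted p = 2.5e-09), before Cep192 (0.69 ± 0.10, adjusted p = 9.3e-08) and Stil (0.56 ± 0.08, adjusted p = 1.9e-07). Cntrob (-0.20 ± 0.06, adjusted p = 0.00755) and Tubgcp3 (-0.19 ± 0.07, adjusted p = 0.0387) were lower. Entry and exit regulators had 12 of 18 higher and 0 lower. Mastl, Greatwall kinase, which blocks the phosphatase that opposes Cdk1, changed by 0.61 ± 0.07 (adjusted p = 1.6e-10, 18 of 18 pairs), Cdkn3, a phosphatase of Cdk proteins, by 0.94 ± 0.12 (adjusted p = 9.7e-09) and the mitotic kinase Pbk by 0.84 ± 0.13 (adjusted p = 3.7e-07).

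Replication genes, active before mitosis, had 26 of 33 higher and 0 lower, with a median change of 0.43. Rrm1, the large subunit of ribonucleotide reductase, changed by 1.48 ± 0.14 (adjusted p = 6.1e-12), Mcm2, of the replicative helicase, by 0.86 ± 0.09 (adjusted p = 2.4e-10) and Chaf1a, a histone chaperone, by 0.63 ± 0.08 (adjusted p = 2.4e-09). Of the G1 and S phase regulators 10 of 21 (47.6%) were higher and 3 (14.3%) lower, the lower share being that of all genes. Ccnd3, cyclin D3, was higher in 18 of 18 pairs (0.68 ± 0.07, adjusted p = 4.6e-12), and E2f3 (0.96 ± 0.11, adjusted p = 1.4e-09) and the cyclin D partner Cdk4 (0.67 ± 0.11, adjusted p = 5.3e-06) were higher as well. Ccnd1, cyclin D1, went the other way: it ranged from 8.20 over a median of 9.19 to 11.53 in tumors and from 8.20 over 10.45 to 11.62 in normal livers. The change was -0.90 ± 0.22 (adjusted p = 0.00124), and the tumor was the higher one in 4 of 18 pairs. The repressor gene E2f8 (-0.51 ± 0.19, adjusted p = 0.0338) and E2f5 (-0.19 ± 0.07, adjusted p = 0.0391) were lower too.

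Of the 7 CDK inhibitor genes, limma called 0, with 1, Cdkn1c, at an unadjusted p under 0.05. The smallest adjusted p values were those of Cdkn1c, p57, with -0.10 ± 0.05 (adjusted p = 0.101), Cdkn1a, p21, with 0.42 ± 0.23 (adjusted p = 0.154), and Cdkn2c, p18, with 0.20 ± 0.12 (adjusted p = 0.175). With array weights Cdkn1a and Cdkn2c were called higher and Cdkn2a lower. That fit called 5362 of all 22180 genes higher and 6214 lower. Of the 11 MuvB and DREAM genes 4 (36.4%) were higher and 1 (9.09%) lower, beside 17.9% and 14.3% of all genes. Mybl1, A-Myb, changed by 1.27 ± 0.20 (adjusted p = 1.7e-06), Rbl1, the pocket protein p107, by 0.62 ± 0.11 (adjusted p = 2.1e-05) and Lin9, of the MuvB core, by 0.36 ± 0.08 (adjusted p = 3.8e-04). The B-Myb gene Mybl2 had a change of 0.11 (adjusted p = 0.103), and it was singled out after its value was seen.

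Outside the 40 genes, the genes most alike in pattern over the 29 tumors, by Pearson correlation with their mean, were Prr11 (0.96), Knl1 and Depdc1a (0.95), Hmmr (0.94), Kif18b and Kntc1 (0.93), Ncaph, Zwilch and Dtl (0.92) and Esco2 (0.91). The median of this correlation over 22140 genes was -0.03. Of the 10, 8 stand in the lists above, and Prr11 and Dtl do not. Prr11 was also the gene most alike over the 29 normal livers (0.89), before H1f5 (0.84), Cdc25b and Knstrn (0.82) and Hmmr and Cip2a (0.80). Of the 10 most alike there, H1f5 and Ptpn7 (0.79) were not called in tumors by limma. Their changes were 0.45 (H1f5, adjusted p = 0.209) and 0.02 (Ptpn7, adjusted p = 0.852).

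By gender label, the tumor change could be read in 57 arrays. In labelled females 5 of 40 genes, Cdk1, Ect2, Nek2, Stmn1 and Ube2c, were called higher in tumors, against 1.38% of all genes, and in labelled males 40 of 40, against 17.9% of all genes. The difference of the change between females and males was called for 0 of 40 genes by limma, and over all genes for 0%. At an unadjusted p under 0.05 it was 14 of 40, against 4.53% of all genes. All 40 estimates were lower in females, with a median of -0.42 on the log2 scale, and the smallest adjusted p was 0.949. The genes moved together over arrays, so these signs are not separate findings. Without tumor 9, labelled male, 39 of 40 were lower in females, with a median of -0.37 and 11 at an unadjusted p under 0.05. Normal liver 19, high for many of the genes, is among the 9 female normal livers, and no fit by gender was run without it. Cdk1 averaged 8.87 ± 0.62 in female tumors (SD, n = 11) and 7.90 ± 0.67 in female normal livers (n = 9), and 9.58 ± 0.64 in male tumors (n = 17) and 7.73 ± 0.57 in male normal livers (n = 20). That is a change of 0.97 ± 0.25 (SE) in females and 1.86 ± 0.19 in males, with a difference of -0.89 ± 0.31 (limma, adjusted p = 0.949). Stmn1 changed by 0.69 ± 0.13 in females and 0.72 ± 0.09 in males, with a difference of -0.03 ± 0.16. Between female and male tumors limma called 0 of 40, with 21 at an unadjusted p under 0.05 (9.96% of all genes). Between female and male normal livers it called 0 of 40, with 0 at an unadjusted p under 0.05 (3.69% of all genes). Without the 7 arrays that went against the label, 1 of 40 genes, Stmn1, was called higher in females and 39 of 40 in males, and the difference had 39 of 40 estimates lower in females with 4 at an unadjusted p under 0.05. Between female and male tumors, leaving out those arrays gave 8 of 40 at an unadjusted p under 0.05 in place of 21, with a median difference of -0.25 in place of -0.35. For the gender fits that leave out arrays, shares of all genes at an unadjusted p under 0.05 are not given here.

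**Figure D5:**
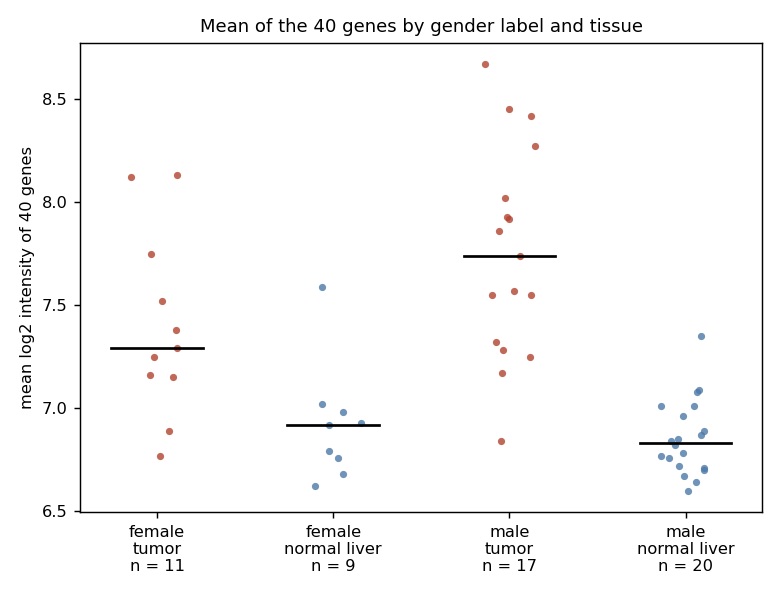
Mean log2 level of the 40 genes in each array by gender label and tissue, tumors left of normal livers, with medians as lines. Female tumors have a median of 7.29 and male tumors of 7.74, against 6.92 in female and 6.83 in male normal livers, and the highest female normal liver is number 19 at 7.59.

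Normal livers of animals whose tumor was also arrayed were compared with normal livers of animals without a tumor array. The mean of the 40 genes ran from 6.60 over a median of 6.80 to 7.59 in the 18 normal livers with a tumor array and from 6.64 over 6.89 to 7.09 in the 11 without. Limma called 0 of 40 genes, against 0.0541% of all genes. At an unadjusted p under 0.05 the count was 0 of 40, against 8.03% of all genes. Estimates ran from -0.39 to 0.19 on the log2 scale with a median standard error of 0.17. Because some titles leave the animal open, the group without a tumor array may hold livers of animals with one. With the looser reading of titles limma also called 0 of 40. The tumor change differed between paired and unpaired animals in 0 of 40 genes. Again 0 had an unadjusted p under 0.05, against 1.88% of all genes.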

How the data were processed

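RNA of 29 tumors and 29 normal livers was measured on whole-transcript arrays. The submitters' processing notes name Affymetrix Expression Console as the software with which the authors made the deposited log2 values, 1 per transcript cluster and array. Version and algorithm of that software, and the genome build, were not given in the sources used here. Of 41345 clusters 23521 had 1 gene symbol, 1814 several and 16010 none, and the brightest single-symbol cluster stood for each of 22180 genes.

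Tumors were compared with normal livers by limma 3.58.1 (lmFit, eBayes with trend) with the animal as a random block (duplicateCorrelation, statmod 1.5.0, R 4.3.3; block correlation 0.145). P-values were adjusted by Benjamini-Hochberg over all genes, and calls needed an adjusted p under 0.05. Sex and pairing contrasts came from fits of 4 groups. Tissue and gender were taken from the labels and animals from the titles. Pairing rests on titles that name the same animal: deviations from the group means of the arrays of 1 animal correlated with a median of 0.241 over 18 pairs, against -0.020 between animals. On simulated arrays with known changes, 94% of genes changed by 0.5 and 97% of those changed by 1 were recovered for tumor against normal liver among 22180 genes. For the difference by sex 84% were recovered at 1, and smaller differences were not simulated. For normal livers with against without a tumor array 77% were recovered at 0.5. All simulated arrays had the spread of normal livers. The measured tumors spread more (median SD ratio 1.93 over the 40 genes), so recovery of these genes may be lower. The precision of the arrays is limited by their number, and scan dates were not used here. Alternatives changed the scaling, the animal term, the arrays and the cluster per gene.

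The genes of the group, the further lists and the marker lists were chosen with earlier results of these data known. Every measured gene of the group is named. Full ranges are given for the genes of smallest adjusted p and of largest change in each role and for Mki67 and Top2a. From each further list up to 3 genes of smallest adjusted p and the gene of largest change are named, and the 10 genes most correlated with the group over tumors. The genes named as lower in those lists and those most correlated over normal livers fall outside that rule and were chosen after their values were seen. Promoter sequences are RefSeq's, of GRCm38.p6. Figures were drawn with matplotlib 3.10.9 in Python 3.11.15.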

Additional observations from a re-analysis of the deposited data

Results flagged for a closer look

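Normal liver 19 lay far above the other 8 female-labelled normal livers, the only group of 4 to 10 arrays formed by tissue and gender, in 10 of the 41 values examined there. Its mean of the 40 genes was 7.59, against 7.02 in the next highest liver of that group. The genes were Ccna2 at 8.36 (next highest 7.51), Plk1 at 8.50 (7.34), Bub1b at 7.55 (6.89), Ndc80 at 7.53 (6.57) and Birc5 at 7.56 (6.29). Further ones were Kif11 at 7.72 (6.91), Kif15 at 7.01 (6.36), Tpx2 at 8.10 (7.04) and Kif23 at 7.52 (6.75). Chance alone would mark about 1 in 20 such values, and these 10 come from a single array, so that they are not separate events. The same array had the highest neutrophil and myeloid precursor marker mean of the normal livers, 10.53 against a median of 6.35, and so did the tumor of this animal, tumor 20, among tumors at 10.55. All 9 markers of that list were high in both, for instance Mpo at 10.57 in tumor 20 and 10.37 in normal liver 19. The hepatocyte marker mean of normal liver 19 was 12.79, within the range of the other normal livers. Over the 29 normal livers the neutrophil and myeloid precursor marker mean and the mean of the 40 genes had a Pearson correlation of 0.63. Their Spearman correlation was 0.03. Without the 2 normal livers farthest from the median of the gene mean, the Pearson correlation was 0.08. The part of myeloid cells in the level of the mitotic genes was not tested.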

How the results depend on the processing

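Of 696 values of single genes under the 18 alternatives to the tumor against normal liver fit, 681 kept direction and call, 15 lost the call and 0 changed direction. For 33 of the 40 genes the call held in every alternative run, and the other 7 were Bora, Ccnb2, Cenpa, Espl1, Foxm1, Melk and Pttg1. Of the 40 genes 37 were called with the animal as a fixed replicate block in the 18 pairs alone, 33 in animals without a pair and 39 with no replicate block. The count was also 39 with 1 tumor per animal, without tumor 9, without arrays against the gender label and, as an alternative chosen after seeing the data, without tumor 9, tumor 20 and normal liver 19. Without normal liver 16, chosen in the same way, all 40 were called. Among the brighter genes only 16 of the 40 were tested, and 16 were called. Over all genes the calls were 3964 higher and 3166 lower. Calls over all genes moved to 1370 higher and 703 lower in animals without a pair, to 1804 lower in the 18 pairs with the replicate block, to 1920 lower among brighter genes and to 6214 lower with array weights. Centring on the median of all clusters, chosen after seeing the data, gave 4689 higher and 1727 lower, so that 73.1% of calls were higher in place of 55.6%, and the 40 genes were still all called. In labelled females 1 gene was called without the arrays against the gender label, in place of 5. The cause of these moves was not tested, and fits that leave out arrays or genes also hold fewer of them. The sex and normal liver contrasts stayed at 0 calls among the 40 genes in every alternative run, as did the female against male tumors. Genes higher in at least 15 of 18 pairs numbered 30, 31 with centred and 32 with quantile-normalized arrays, and genes with the larger spread in tumors 39 in each alternative run. Detection calls were not used here, so a dim gene may be read less precisely.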
